A study of Mus musculus with 10 samples.

Results

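The stomach was compared with the duodenum, the first segment of the small intestine, in mice after vertical sleeve gastrectomy (VSG), to describe how RNA of gastric and intestinal lining differed. There were 13436 members of 23079 genes in the table: every gene whose mean over both libraries was at least 1 RPKM (reads per kilobase, corrected for the depth of each library). Just inside that limit lay Cenpi, a centromere protein gene, at 0.697 RPKM in VSG stomach and 1.31 RPKM in VSG duodenum. Just outside it lay Ccdc112, at 1.15 and 0.850 RPKM. The study sequenced RNA of stomach, duodenum, jejunum, ileum and colon after VSG or a sham operation, 10 libraries with 1 for each tissue and operation. All mice were male C57BL/6J, given as 17 weeks old and as kept on a high-fat diet for 13 weeks, fasted overnight ahead of the operation, and given a liquid diet for the first 3 days after it. VSG cut away the lateral 80% of the stomach, and the tube of about 20% that was left was sutured closed. Sham-operated mice had the abdomen opened and light pressure put on the stomach. The labels do not give the number of animals behind a library, the time at which tissue was taken, or which layer or stretch of the remaining stomach and of the duodenum was sampled. With 1 library on each side there is no spread between replicates and no test.

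The lining changes abruptly at the pylorus, the muscular valve between both organs. Gastric glands hold surface mucous cells, deep mucous cells, acid-secreting parietal cells, pepsinogen-secreting chief cells and hormone cells, and in the mouse the upper stomach (forestomach) is covered by a squamous, skin-like epithelium. The duodenum is lined by villi of absorptive enterocytes with goblet, Paneth and endocrine cells, and its first stretch holds Brunner's glands, which secrete mucus much like the deep glands of the stomach. The homeobox factors CDX1 and CDX2 keep the intestinal identity, SOX2 and BARX1 the gastric one, and PDX1 is made in the cells around the border and in the pancreas.

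Before the comparison, the libraries were set beside their labels. Genes of gastric mucous cells and forestomach were high in VSG stomach and genes of proximal small intestine in VSG duodenum, as given below, so these markers did not go against either label. Parietal genes, at 0.0297% of all RPKM, and chief cell genes, at 0.328%, were low in VSG stomach beside 0.848% and 19.8% in sham stomach. The VSG stomach library also held RNA of other cells. The 16 liver genes listed made up 3.88% of all its RPKM, against 0.0214% in sham stomach and 0.00482% in VSG duodenum. Alb, serum albumin, was at 5128 RPKM there, against 1.69 RPKM in sham stomach, while VSG duodenum had 0.864 RPKM of it. The 11 neutrophil genes made up 0.358% of the RPKM in VSG stomach, 0.00621% in sham stomach and 0.000997% in VSG duodenum. RNA of acinar pancreas, the enzyme-secreting part of that gland, was in both libraries compared. Its 19 kept genes made up 0.527% of VSG stomach and 0.820% of VSG duodenum, against 0.0919% in sham stomach and 0.0116% in sham jejunum. Their medians were 84.4 RPKM in VSG stomach, 163 in VSG duodenum, 2.44 in sham stomach and 0.234 in sham jejunum. The list also made up 0.665% of sham colon and 0.723% of VSG colon. Its median was only 0.291 RPKM in sham colon, so the summed share alone does not measure acinar RNA. The library labelled sham duodenum held almost no intestinal RNA (Sis, sucrase-isomaltase, at 0.286 RPKM), so it was not used. Sham stomach against sham jejunum, which shares no library with the main comparison, was taken as the second pair instead. Whole reads recovered from the values came to 45404302 in VSG stomach and 68335983 in VSG duodenum, and to between 36036619 and 79260603 over the 10 libraries.

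VSG stomach and VSG duodenum differed in many genes, with nearly as many on either side. Of the 13436 members, 2209 (16.4%) were at least 2-fold higher in VSG stomach and 1994 (14.8%) at least 2-fold higher in VSG duodenum, while 9233 lay within 2-fold. A gene was counted as higher where log2((stomach RPKM + 1)/(duodenum RPKM + 1)) reached 1 in either direction. The added 1 understates the difference of genes of low level. The median of this log2 difference over all members was -0.16, which is the value that medians of gene groups are set beside below. At 16-fold or more there were 331 genes for stomach and 178 for duodenum, and at 256-fold or more 39 and 15. Of the 2-fold genes, 52.6% were higher in stomach on the authors' scaling and 64.0% after rescaling both libraries to their recovered reads, which moved every gene by 0.24 on the log2 scale. Where the limit on the mean was set at 10 RPKM the balance was turned, with 920 higher in stomach and 1377 higher in duodenum (40.1% for stomach), and with 5 added in place of 1 it was 49.6%. Fold values below are ratios of RPKM without the added 1. Their exact (Clopper-Pearson) 95% intervals come from the recovered reads and cover counting error only, not the difference between animals or dissections.

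**Figure D1:**
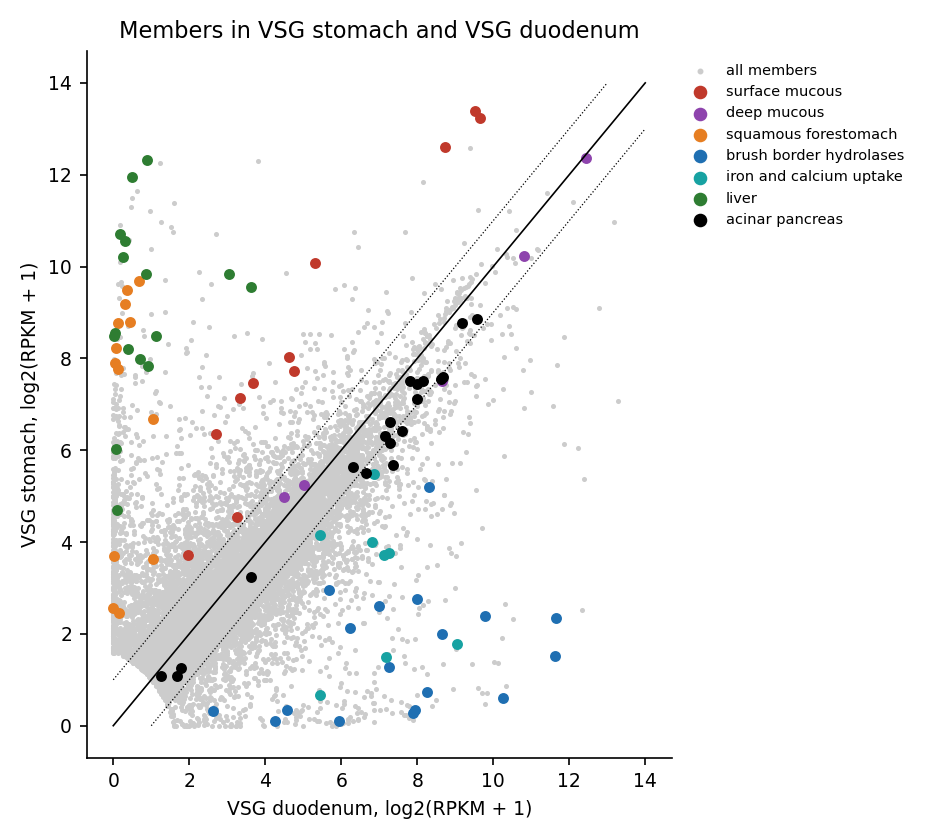
Each point is one of the 13436 members, at its level in VSG duodenum on the x axis and in VSG stomach on the y axis, both as log2(RPKM + 1) and from 1 library each; the solid line marks equal levels, the dotted lines 2-fold, and colours mark gene groups. Brush border genes lie low and to the right, squamous and liver genes along the left edge, and surface mucous genes above the line but well away from that edge.

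The 10 genes farthest to the stomach side were mostly not genes of gastric lining. In order they were Hpx, Alb, Hp, Chil4, Saa2, Saa1, Orm1, Mup20, Ahsg and Lcn2, and all of them but Chil4, a chitinase-like protein gene, encode plasma proteins made in liver or proteins released in inflammation. Hpx, hemopexin, was at 3938 RPKM in VSG stomach and 0.413 RPKM in VSG duodenum, 9539-fold (95% interval 6890.3 to 13620.3) higher in stomach, and at 0.560 RPKM in sham stomach. Lcn2, an iron-scavenging protein of neutrophils and inflamed epithelium, was at 2376 RPKM in VSG stomach and 0.955 RPKM in VSG duodenum and at 0.867 RPKM in sham stomach. Mup20 belongs to a family of near-identical copies, whose reads may have been split by the counting, so its value is uncertain. In contrast, Chil4 was at 397 RPKM in sham stomach too, beside 3188 RPKM in VSG stomach and 0.540 RPKM in VSG duodenum. Of the 2209 genes counted for stomach, 521 (23.6%) were under 1 RPKM in sham stomach. The part of liver RNA in the other counts was not tested.

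Among members that reached 10 RPKM in sham stomach as well, a limit chosen after the values were seen, the 10 farthest to the stomach side were Chil4, Krt1, Lor, Krt13, Krtdap, Krt14, Trf, Krt4, Krt10 and Lgals7. Of these, 8 belong to squamous epithelium, namely keratins and proteins of the cornified layer. Krt1, a keratin of cornifying cells, was at 717 RPKM in VSG stomach and 0.277 RPKM in VSG duodenum, 2585-fold (95% interval 1898 to 3618) higher. Lor, loricrin, the main protein of the cornified envelope, was at 719 and 0.343 RPKM. Trf, transferrin, is also a plasma protein of liver and stood at 13.0 RPKM in sham stomach against 5043 RPKM in VSG stomach.

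The 10 genes farthest to the duodenum side were Akp3, Prap1, Sis, Defa24, Sult6b2, Alpi, Defa17, Defa3, Defa30 and Adh6a. They are genes of enterocytes and of Paneth cells. Akp3 and Alpi encode intestinal alkaline phosphatases of the brush border, Sis digests sucrose and starch fragments, Prap1 is a secreted epithelial protein that binds lipid, and the Defa genes encode the antimicrobial peptides of Paneth cells. Sis was at 0.519 RPKM in VSG stomach and 1228 RPKM in VSG duodenum, 2366-fold (95% interval 2008 to 2807) higher in duodenum. Prap1 was at 4.72 and 5156 RPKM, 1091-fold (95% interval 923 to 1301) higher. Adh6a, an alcohol dehydrogenase, was at 1.58 and 1119 RPKM, and Sult6b2, a sulfotransferase, at 0.391 and 883 RPKM. All 4 were at under 5 RPKM in VSG stomach, but they were picked by the size of their difference. Over whole lists, brush border enzymes stood in VSG stomach at a median of 0.613% of VSG duodenum. Fat absorption genes stood there at 7.63%.

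Surface mucous cells line the stomach and its pits and coat it with mucin and small stabilising peptides. All 11 listed genes were at least 2-fold higher in VSG stomach, with a median log2 difference of 3.65 against -0.16 over all members. Gkn1, a gastrokine that guards the mucosa, was at 6181 RPKM in VSG stomach and 425 RPKM in VSG duodenum, 14.5-fold (95% interval 14.4 to 14.7) higher. Tff1, a trefoil peptide that binds mucus, was at 10786 RPKM in VSG stomach and 732 RPKM in VSG duodenum, 14.7-fold (95% interval 14.5 to 15.0) higher. Muc5ac, the mucin of the surface, was at 176 and 11.7 RPKM, 15.1-fold (95% interval 14.7 to 15.5) higher. Gkn1, Tff1 and Muc5ac therefore differed by nearly the same factor, and Cldn18, the tight-junction claudin of stomach, was 15.5-fold (95% interval 14.8 to 16.3) higher. Gkn2 was at 9668 and 806 RPKM, 12.0-fold (95% interval 11.9 to 12.1) higher, a smaller factor. Psca, a surface antigen of gastric mucous cells, had the largest log2 difference of the group, 4.78, with 1082 and 38.5 RPKM. In bulk tissue fewer cells of a type and less RNA per cell cannot be told apart, here and below.

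Surface mucous RNA was thus present in VSG duodenum at a median of 6.88% of its level in VSG stomach (range 3.56% to 38.4%). In VSG jejunum the same genes stood at a median of 0.0685% of VSG stomach (range 0.0291% to 24.3%), with Capn8 at 10.4% and Capn9 at 24.3%, both calpain proteases named after their values were seen. Gkn1 was at 2.66 RPKM in VSG jejunum and 2.25 RPKM in sham jejunum, and Muc5ac at 0.0733 RPKM in sham jejunum. Apart from Capn8 and Capn9, VSG jejunum thus held under 2% of the VSG stomach level of each listed gene.

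The deep mucous genes behaved otherwise. Of 5 listed genes none was 2-fold higher in VSG stomach and 1 was 2-fold higher in VSG duodenum, and their median log2 difference was -0.09, which turned to between 0.04 and 0.15 when the libraries were rescaled. Tff2, the trefoil peptide of deep glands and Brunner's glands, was at 5244 RPKM in VSG stomach and 5582 RPKM in VSG duodenum, a direction that also turned with rescaling. Muc6, the mucin of the same glands, was at 180.3 RPKM in VSG stomach and 399 RPKM in VSG duodenum, 2.21-fold (95% interval 2.20 to 2.23) higher in duodenum, which dropped under the 2-fold limit under 3 of the 4 rescalings. Gkn3 was at 1201 and 1787 RPKM, and A4gnt, the enzyme that caps the sugar chains of gland mucin, at 36.7 and 31.3 RPKM. Aqp5, a water channel of gland cells named after its values were seen, was at 30.3 and 21.7 RPKM. All of these genes were at most 6.65 RPKM in VSG jejunum. Deep mucous RNA was therefore about as abundant on the duodenal side of the border as on the gastric side, and close to none of it was in jejunum.

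**Figure D2:**
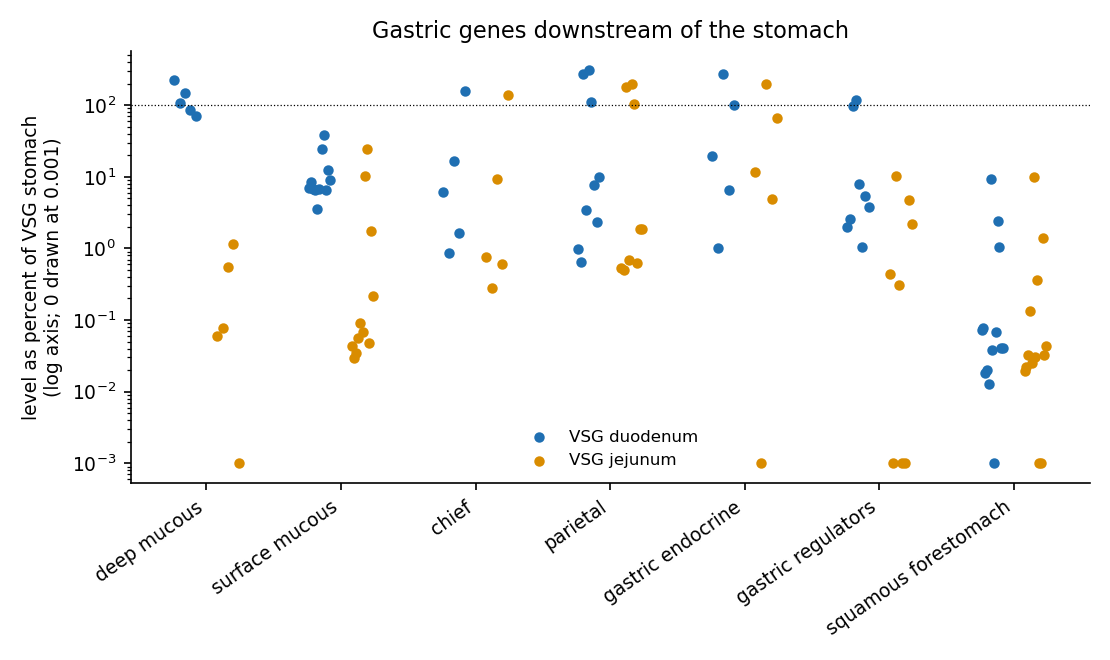
Each point is a kept gene of a gastric group, drawn at its RPKM in VSG duodenum (blue) or VSG jejunum (orange) as a percent of its RPKM in VSG stomach on a log axis, with values of 0 placed at 0.001; 1 library per tissue. In VSG duodenum the deep mucous genes lie on both sides of 100%, the surface mucous genes around 6.88% and the squamous genes mostly under 0.1%, whereas in VSG jejunum most deep and surface mucous genes lie far lower.

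RNA of the squamous epithelium of the forestomach was almost all on the stomach side. All 13 listed genes were higher in VSG stomach, with a median log2 difference of 7.85, and stood in VSG duodenum at a median of 0.0413% of their VSG stomach level. Krt13, a keratin of the upper layers, was at 827 RPKM in VSG stomach and 0.594 RPKM in VSG duodenum, 1392-fold (95% interval 1043 to 1901) higher. Krt4, its partner, was at 445 and 0.350 RPKM, and the basal keratins Krt5 and Krt14 at 299 and 0.0542 RPKM and at 438 and 0.0888 RPKM. Trp63, the factor of basal squamous cells, named after its values were seen, was at 4.87 RPKM in VSG stomach and had no read in VSG duodenum, at least 860.2-fold higher against a floor of 3 reads in that library. Sham stomach held them as well, with Krt13 at 1189 RPKM and Krt5 at 177 RPKM. The median share of 0.0413% for squamous genes lay far under the 6.88% for surface mucous genes, so squamous and surface mucous RNA were not in one ratio in the duodenum library.

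Acid and enzyme genes were low in VSG stomach itself. Of 9 parietal genes kept, of 12 in the table, 6 were 2-fold higher in VSG stomach and 1 in VSG duodenum (median log2 1.61). Atp4a and Atp4b, the subunits of the proton pump that acidifies the stomach, were at 53.0 and 58.1 RPKM in VSG stomach and 0.524 and 0.379 RPKM in VSG duodenum. Atp4a was 101-fold (95% interval 84.7 to 122) and Atp4b 153-fold (95% interval 111 to 218) higher in stomach. In sham stomach they stood at 2093 and 2002 RPKM, so the pump's RNA was present in VSG stomach at a small part of that level. Kcne2, a potassium channel subunit that parietal cells need for acid, was at 2.31 and 0.0802 RPKM. Its partner Kcnq1, which crypt cells of the intestine use too, went the other way at 7.11 and 19.6 RPKM, 2.76-fold (95% interval 2.59 to 2.95) higher in duodenum.

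Of 5 chief cell genes kept, 4 were higher in VSG stomach (median log2 3.49). Pgc, pepsinogen C, was at 1376 RPKM in VSG stomach and 85.3 RPKM in VSG duodenum, 16.1-fold (95% interval 15.7 to 16.5) higher, and at 92218 RPKM in sham stomach. Cblif, intrinsic factor, which carries vitamin B12, was at 113 and 0.986 RPKM, 115-fold (95% interval 93.4 to 143) higher. Chia1, an acidic chitinase, was at 14.1 and 2.34 RPKM against 11208 RPKM in sham stomach, and Pga5, another pepsinogen, at 12.5 and 0.204 RPKM. Pgc and Chia1 show the gap between the stomach libraries at its widest among these 4 genes. With sham stomach in the place of VSG stomach, 11 parietal genes counted as higher in stomach and none in duodenum.

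Among gastric hormone genes, Gast, the hormone of antral G cells that drives acid secretion, had the largest ratio of those named here. It was at 280.2 RPKM in VSG stomach and 2.83 RPKM in VSG duodenum, 98.8-fold (95% interval 78.8 to 126) higher, and was listed at 0 RPKM in VSG jejunum. Hdc, the enzyme that makes histamine, was at 19.3 and 1.28 RPKM. Ghrl, the hunger hormone ghrelin, was at 150.2 and 29.4 RPKM, 5.10-fold higher. Sst, somatostatin, which restrains acid and hormone release, was higher in duodenum at 31.0 and 84.2 RPKM, 2.72-fold (95% interval 2.52 to 2.93). In sham stomach Sst stood at 376 RPKM and Ghrl at 1004 RPKM, so the order of stomach and duodenum for Sst held for the VSG stomach library and not with sham stomach in its place.

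The hormones of the intestinal side had the opposite pattern. Gip, Sct and Cck, released by the duodenum after a meal to drive insulin, bicarbonate and bile or enzyme flow, were near 1 RPKM or less in VSG stomach (0.932, 0.384 and 1.40 RPKM) and at 114, 66.4 and 67.3 RPKM in VSG duodenum. Gip was 123-fold (95% interval 84.8 to 185) higher in duodenum, Sct 173-fold (95% interval 91.1 to 379) and Cck 48.1-fold (95% interval 36.9 to 64.0). Of 8 intestinal hormone genes 6 were 2-fold higher in duodenum (median log2 -2.13). Nts, neurotensin, was low in both at 2.11 and 1.58 RPKM and was higher in VSG jejunum at 13.9 RPKM. General genes of endocrine cells, granule genes and regulators together, leaned to duodenum: of 6 kept, 4 were higher there. Chga was at 25.2 and 59.5 RPKM and Neurog3, the factor that starts the endocrine fate, at 0.0982 and 3.70 RPKM. In sham stomach Chga was at 252 RPKM.

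Regulators of regional identity lay on one side or the other, with a shared pair between them. Sox2 was at 9.75 RPKM in VSG stomach and 0.193 RPKM in VSG duodenum, 50.4-fold (95% interval 34.7 to 76.2) higher in stomach. Barx1, which in the mouse embryo acts from the stomach mesenchyme, was at 17.2 and 0.449 RPKM, 38.3-fold (95% interval 24.0 to 65.1) higher. Foxq1, a factor of surface mucous cells, was at 57.0 and 55.3 RPKM, and Nkx6-3, a factor of antral endocrine cells, at 15.6 and 18.2 RPKM. Both differed by under 2-fold, and the direction of Nkx6-3 turned with rescaling. Both were far lower in VSG jejunum, Foxq1 at 5.77 and Nkx6-3 at 0.0476 RPKM. The other 4 listed gastric regulators were all higher in stomach, by log2 differences from 1.84 to 2.81.

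All 13 intestinal regulators were higher in duodenum (median log2 -2.86). Cdx2 was at 0.0806 RPKM in VSG stomach and 78.8 RPKM in VSG duodenum, 978-fold (95% interval 496 to 2266) higher, and Cdx1 at 0.0494 and 71.0 RPKM, 1439-fold (95% interval 562 to 5282) higher. Hnf4g, a nuclear receptor of enterocytes, was at 1.20 and 115 RPKM, while its relative Hnf4a, which liver makes too, differed less, at 39.4 and 153 RPKM. Pdx1 lies close to Cdx2 on chromosome 5 (chr5:147270097-147275848 and chr5:147300900-147307249 in GRCm38) but had another profile. It was at 7.64 RPKM in VSG stomach and 67.5 RPKM in VSG duodenum, 8.84-fold (95% interval 8.03 to 9.75) higher, and only 1.59 RPKM in VSG jejunum, where Cdx2 was at 80.7 RPKM. Pdx1 is also a gene of pancreas cells, whose RNA both libraries held and whose part in these values was not tested. Ptf1a, the factor that defines acinar cells and was named after its values were seen, was at 0.229 and 0.248 RPKM.

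The longest list with every gene on one side at the border belonged to the enterocyte's absorptive surface. All 18 brush border enzymes were higher in VSG duodenum, with a median log2 difference of -5.91 and a range from -10.12 to -2.30. Lct, lactase, was at 0.203 RPKM in VSG stomach and 237 RPKM in VSG duodenum, 1167-fold (95% interval 903 to 1538) higher. Mgam, maltase-glucoamylase, was at 4.21 and 874 RPKM and Treh, trehalase, at 0.667 and 303 RPKM. Akp3 was at 1.86 RPKM in VSG stomach and 3174 RPKM in VSG duodenum, 1706-fold (95% interval 1511 to 1934) higher. Alpi, its neighbour on chromosome 1 (chr1:87098002-87101606, Akp3 at chr1:87124954-87128728), was at 4.06 and 3210.0 RPKM, 791-fold (95% interval 720.2 to 870.5) higher. The pair parted further down the gut in the VSG libraries: VSG jejunum held 804 RPKM of Alpi and 36.0 RPKM of Akp3. Sham jejunum held more Akp3, 223 RPKM. As related genes they may share reads, and the handling of such reads in the counting is not given here.

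The stretch of 100 bases before the start of 3 genes of this absorptive surface is shown beside that of the 3 gastrokines, because CDX factors bind A/T-rich letters near such intestinal genes and Cdx2 itself stood almost entirely on the duodenal side. The 6 genes were chosen after their values were seen. The sequences are RefSeq's for GRCm38.p6, read 5′ to 3′ on the gene's strand, and capitals mark the letters TTTATNG on either strand. They lie at chr3:72967864-72967963 (minus strand) for Sis, chr1:87101607-87101706 (minus) for Alpi, chr3:122894972-122895071 (plus) for Fabp2, chr6:87350916-87351015 (minus) for Gkn1, chr6:87373265-87373364 (plus) for Gkn2 and chr6:87388936-87389035 (minus) for Gkn3.
Sis: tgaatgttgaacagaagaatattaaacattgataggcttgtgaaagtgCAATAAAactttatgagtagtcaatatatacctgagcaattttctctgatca
Alpi: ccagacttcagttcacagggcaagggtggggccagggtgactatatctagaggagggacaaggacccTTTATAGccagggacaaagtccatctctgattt
Fabp2: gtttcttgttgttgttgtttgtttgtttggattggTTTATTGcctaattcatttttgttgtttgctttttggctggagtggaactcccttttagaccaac
Gkn1: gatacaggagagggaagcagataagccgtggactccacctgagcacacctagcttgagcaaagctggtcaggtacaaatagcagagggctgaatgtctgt
Gkn2: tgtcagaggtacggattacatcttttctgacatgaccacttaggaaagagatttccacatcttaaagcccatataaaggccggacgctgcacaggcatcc
Gkn3: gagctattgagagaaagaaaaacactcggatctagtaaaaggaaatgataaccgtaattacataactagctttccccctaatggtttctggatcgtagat
The letters stood 52 to 46 bases before the start in Sis, 33 to 27 in Alpi and 65 to 59 in Fabp2, and in none of the gastrokine stretches. In Alpi they overlap the letters TATAAA of a TATA box on the other strand, and the HNF4 letters CAAAGTCCA follow at 19 to 11. In Gkn1 the GATA letters AGATAAG stood at 82 to 76, and in Gkn2 TATAAA at 29 to 24.

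Over windows of 300 bases around the start, the CDX letters were in 819 of the 10604 members with a promoter in the RefSeq table (7.72%) and in 11.3% of all 27025 genes of that table. They were in 37 of 141 genes at least 16-fold higher in VSG duodenum (26.2%) and in 45 of 242 at least 16-fold higher in VSG stomach (18.6%). Where the letters that overlap TATAAA are left out, these shares were 16.3% and 9.50%, beside 4.89% of members and 7.86% of all 27025 genes. At the 2-fold limit they were 6.00% for duodenum and 5.80% for stomach. Genes far from equal on either side thus held the letters more often than members at large, and the gap between both sides was not tested. Of all 27025 windows, 0.477% held the HNF4 letters, 3.07% the GATA letters and 14.2% TATAAA, each searched on both strands. TATAAA was in 8.68% of members, 24.1% of the 16-fold duodenum genes and 30.6% of the 16-fold stomach genes. In the same order, the GATA letters were in 2.08%, 6.38% and 5.79%. The HNF4 letters were in 0.585%, 3.55% and 0.826%, the last 2 shares being 5 and 2 genes. A match is a description of letters, not of binding.

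Transporters and the machinery for fat followed the enzymes. All 13 sugar, peptide and amino acid transporters were higher in duodenum (median log2 -4.25). Slc5a1, the sodium-glucose transporter of the brush border, was at 5.29 RPKM in VSG stomach and 1276 RPKM in VSG duodenum, 241-fold (95% interval 226 to 257) higher. Slc2a2 and Slc2a5, the glucose and fructose carriers, were at 14.3 and 322 RPKM and at 1.86 and 199 RPKM. Slc2a2 is a liver gene as well and was at 0.0981 RPKM in sham stomach. The part of liver RNA in its VSG stomach level was not tested. Slc15a1, the peptide transporter, was at 1.29 and 42.6 RPKM, 32.9-fold higher.

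Of 16 genes of fat absorption 12 were higher in duodenum (median log2 -3.69) and none was 2-fold higher in stomach. Fabp2, the intestinal fatty acid binding protein whose promoter stretch is shown above, was at 40.5 RPKM in VSG stomach and 5356 RPKM in VSG duodenum, 132-fold (95% interval 125 to 139.9) higher. Mttp, which loads lipid onto chylomicrons, was at 18.8 and 840.1 RPKM, 44.7-fold (95% interval 43.3 to 46.1) higher. Mttp is a liver gene too and was at 0.914 RPKM in sham stomach. Fabp1 and Apob, which liver also makes, showed smaller gaps, with Fabp1 at 549.9 and 7109 RPKM and Apob at 65.9 and 237 RPKM. In sham stomach Fabp1 was at 13.1 RPKM and Apob at 5.62 RPKM, both below VSG stomach. The 16 liver markers moved with these 3 genes between the stomach libraries, at a median of 561 RPKM in VSG stomach and 0.604 RPKM in sham stomach, and their part in these gaps was not tested.

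Several genes of iron and calcium uptake were higher in VSG duodenum than in jejunum as well as in stomach. All 8 kept genes were higher in VSG duodenum than in VSG stomach (median log2 -3.44). S100g, the calcium-binding protein of enterocytes, was at 2.42 RPKM in VSG stomach and 524 RPKM in VSG duodenum, 216-fold (95% interval 174 to 272) higher, and at 14.8 RPKM in VSG jejunum. Slc40a1, ferroportin, the iron exporter, was at 12.5 RPKM in VSG stomach and 152 RPKM in VSG duodenum, 12.1-fold (95% interval 11.7 to 12.5) higher, and at 5.40 RPKM in sham jejunum. Slc11a2, the iron importer, was at 12.2 and 137 RPKM, and Cybrd1, the duodenal iron reductase, at 16.7 and 42.4 RPKM with 0.828 RPKM in VSG jejunum. Heph, which oxidises the exported iron, was at 0.588 and 42.3 RPKM and remained close to that in VSG jejunum (33.5 RPKM). With VSG jejunum in the place of VSG duodenum, 3 genes counted as higher in the intestine and 2 as higher in stomach. Macrophages export iron through Slc40a1 too, and the macrophage list made up 0.577% of VSG stomach and 0.0763% of VSG duodenum. The part of macrophage RNA in the Slc40a1 levels was not tested.

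**Figure D3:**
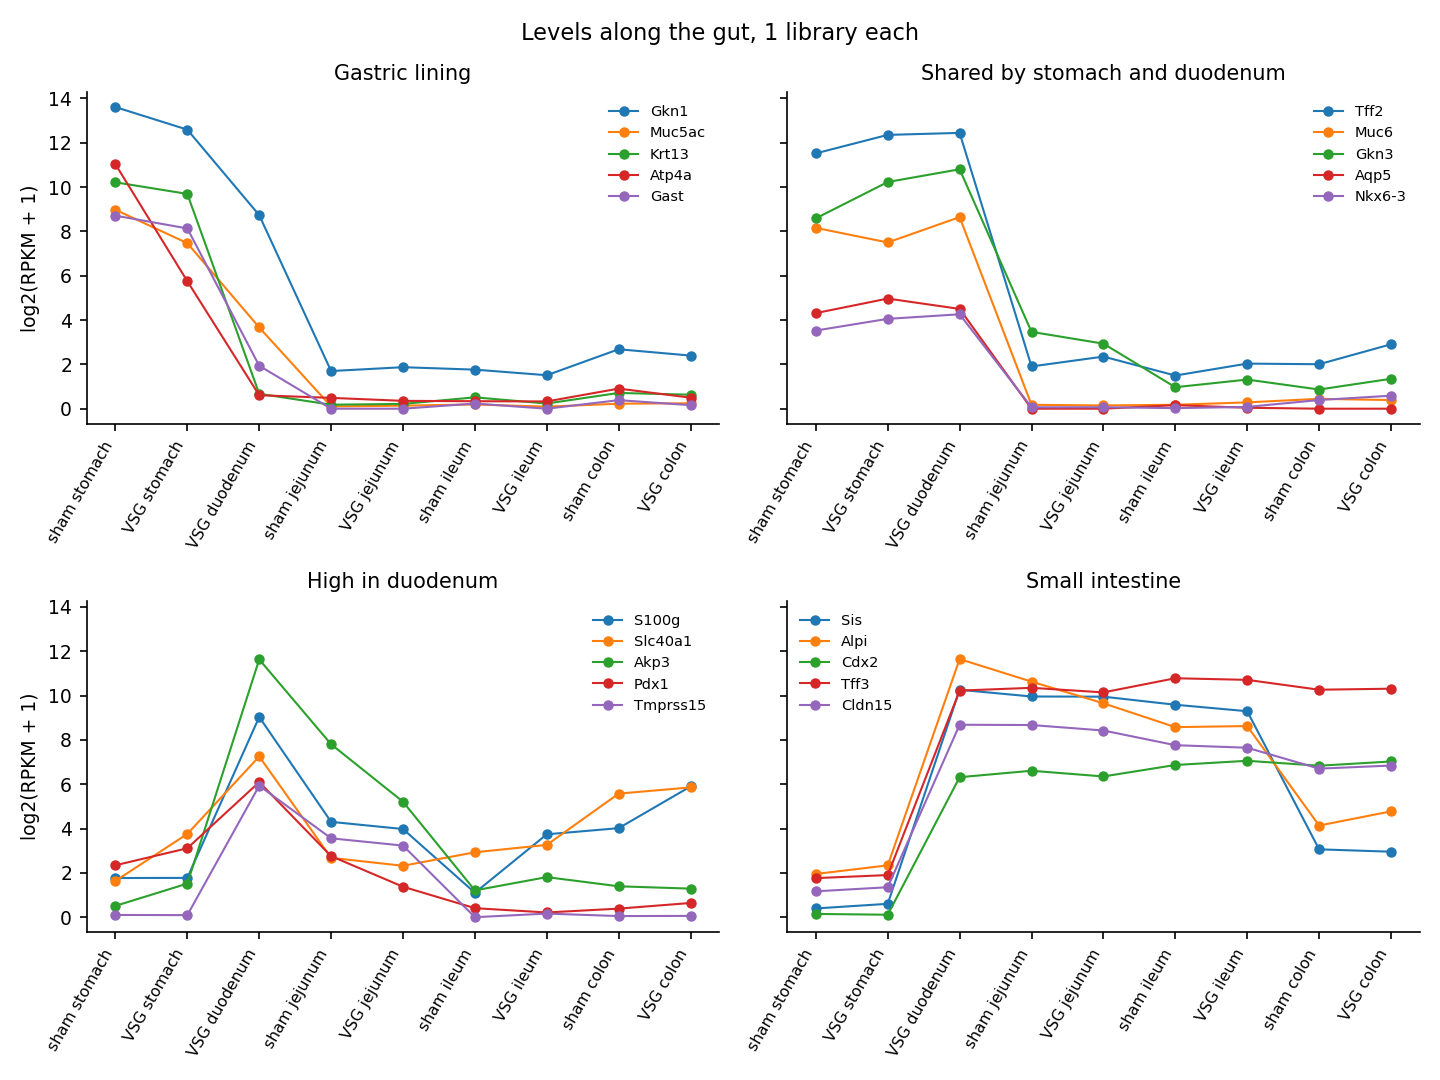
Lines give the level of named genes as log2(RPKM + 1) along the gut, with 1 library per point and the library labelled sham duodenum left out; Tmprss15, the enzyme that starts trypsin activation, was added after its values were seen. Genes of gastric lining are low or lower in VSG duodenum, the mucous gland genes are near their stomach level there and low in jejunum, S100g, Slc40a1, Akp3, Pdx1 and Tmprss15 peak in VSG duodenum among stomach and small intestine, and Sis, Alpi, Cdx2, Tff3 and Cldn15 are high in VSG duodenum and in jejunum.

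The scaffold of the microvilli gave the same picture: all 10 listed genes were higher in duodenum (median log2 -4.85). Vil1, villin, was at 34.2 and 741 RPKM, so actin-bundling villin was already present in stomach, whereas Cdh17, the intestinal cadherin, was at 0.339 and 332 RPKM, 978-fold (95% interval 779 to 1245) higher. The links between microvilli, Cdhr2 and Cdhr5, were at 2.17 and 516 RPKM and at 12.0 and 514 RPKM. Ush1c, which anchors them, was at 0.0973 and 85.4 RPKM. All 6 ion transporters were higher in duodenum too. They include Cftr, the chloride channel of crypts and Brunner's glands (9.77 and 44.5 RPKM), Slc26a3 and Slc26a6, exchangers of chloride for bicarbonate (0.0490 and 65.4 RPKM, 1.59 and 204 RPKM), and Slc9a3, the sodium-proton exchanger (5.81 and 62.0 RPKM).

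Among secretory cells of the intestine, Paneth cell genes lay almost wholly on the duodenal side. Of 9 kept, 8 were higher in duodenum (median log2 -5.57). Lyz1, the Paneth lysozyme, was at 137 and 1013 RPKM, and Itln1, intelectin, at 5.54 and 309 RPKM. Mmp7, which activates the defensins, differed by under 2-fold at 17.1 and 23.5 RPKM, and was at 0.116 RPKM in sham stomach. Defa24 was at 0.825 and 1292 RPKM, but the Defa genes are near-identical copies and their single values are uncertain. All 4 Reg lectins, antimicrobial or repair proteins with close copies among themselves, were higher in duodenum, with Reg1 at 68.8 and 3729 RPKM and Reg3b at 12.5 and 471 RPKM. Reg1 is made by acinar pancreas too, and the part of pancreas RNA in its level was not tested. In sham jejunum, which held little pancreas RNA, Reg1 was at 634 RPKM.

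Goblet cell genes differed unevenly. Of 7 kept, 4 were higher in duodenum and none in stomach (median log2 -1.76). Tff3, the intestinal trefoil peptide, was at 2.74 RPKM in VSG stomach and 1197 RPKM in VSG duodenum, 437-fold (95% interval 338 to 576) higher. Fcgbp, a mucus protein, was at 114 and 415 RPKM. Clca1, a mucus-processing protease, was nearly level at 440.1 and 414 RPKM. Muc2, the main intestinal mucin, was not analysed here.

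Related genes that lie near each other in the genome differed in their ratio of stomach to duodenum. The 3 trefoil genes sit in a row on chromosome 17 (GRCm38), Tff3 at chr17:31125306-31129611, Tff2 at chr17:31141062-31144282 and Tff1 at chr17:31161395-31165060. Tff1 was 14.7-fold higher in VSG stomach, Tff2 was about level and Tff3 was 437-fold higher in VSG duodenum. On chromosome 7 the gland mucin gene Muc6 (chr7:141633459-141655393) precedes the surface mucin gene Muc5ac (chr7:141788958-141819227). Both were at like levels in VSG stomach (180.3 and 176 RPKM), yet VSG duodenum held 399 RPKM of Muc6 and 11.7 RPKM of Muc5ac. The gastrokines on chromosome 6 repeated this split: Gkn1 (chr6:87345653-87350915) and Gkn2 (chr6:87373365-87379494) were 14.5-fold and 12.0-fold higher in stomach, while Gkn3 (chr6:87383319-87388935) was 1.49-fold (95% interval 1.47 to 1.51) higher in duodenum. Each product is a secreted mucin, trefoil peptide or gastrokine.

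Claudins and hedgehog ligands differed in which member was high on each side. Of the tight-junction claudins, Cldn18 was at 139.7 RPKM in VSG stomach and 9.01 RPKM in VSG duodenum, and Cldn15, which forms the sodium-permeable pores of small intestine, at 1.55 RPKM in VSG stomach and 411 RPKM in VSG duodenum, 264-fold (95% interval 223 to 316) higher. Cldn3 was at 31.0 and 182 RPKM and Cldn2, another pore-forming claudin, differed by under 2-fold at 36.5 and 63.6 RPKM. Over the list, 1 of 7 kept was 2-fold higher in stomach and 4 in duodenum. Shh, the hedgehog ligand of gastric glands, was at 8.40 and 0.592 RPKM, 14.2-fold (95% interval 11.5 to 17.7) higher in stomach. Ihh, its intestinal relative, was at 8.23 and 24.8 RPKM, 3.02-fold (95% interval 2.84 to 3.22) higher in duodenum. Ptch1, their receptor, was at 3.19 and 8.03 RPKM. In sham stomach and sham jejunum Shh was at 13.3 and 0.0748 RPKM and Ihh at 12.2 and 25.5 RPKM, so in both pairs the stomach held Shh and Ihh together and the intestine Ihh with little Shh.

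**Figure D4:**
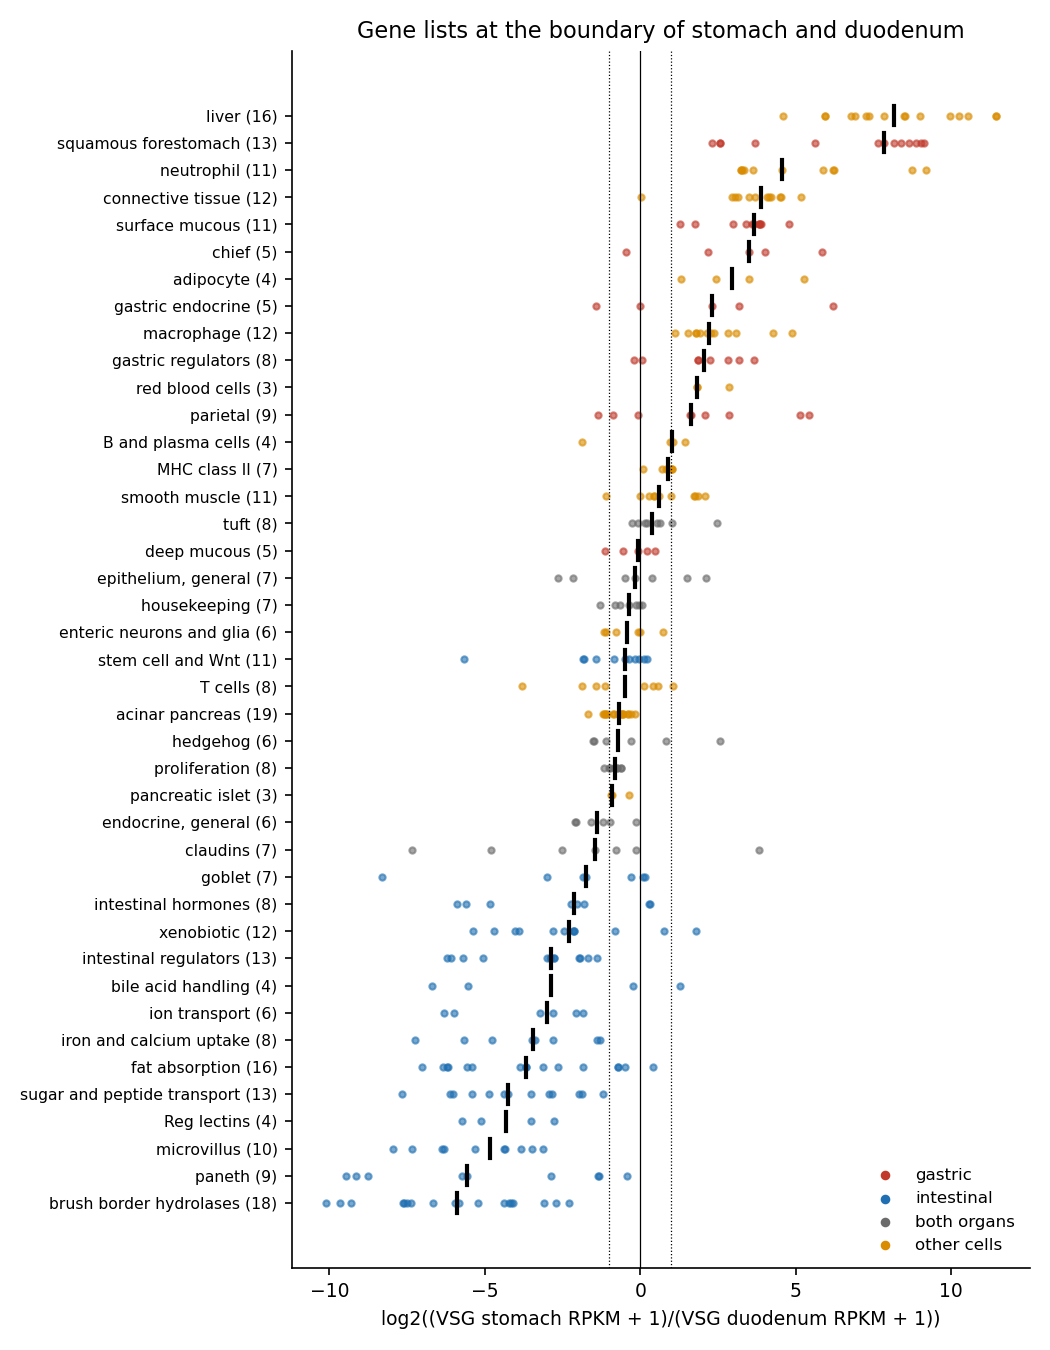
For each gene list, points give the log2 difference of its kept genes (number in brackets), positive where VSG stomach was higher, and the black bar their median; the dotted lines mark 2-fold, colours the kind of list, and each side is 1 library. Lists run from liver (8.15) and squamous forestomach (7.85) at the top to Paneth cells (-5.57) and brush border enzymes (-5.91) at the bottom.

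Drug and toxin handling leaned to duodenum with exceptions. Of 12 kept genes 9 were higher there and 1 in stomach (median log2 -2.31). Cyp3a11 and Cyp3a13, cytochromes that oxidise drugs, were at 39.5 and 181 RPKM and at 23.5 and 368 RPKM. Cyp2b10 had the widest gap, 0.694 and 70.2 RPKM. Gsta1, a glutathione transferase, was high on both sides at 1316 and 2308 RPKM. Cyp3a11 is a liver gene as well and was at 0.0373 RPKM in sham stomach, and the part of liver RNA was not tested. Of the bile acid genes, Fabp6 and Fgf15, which mark ileum, were under the 1 RPKM limit, and Slc51a, a subunit of the exporter of bile acids, was at 0.266 and 129.8 RPKM. Slc10a2, the bile acid importer, was at 2.49 and 0.458 RPKM, the list's 1 gene of 4 kept that was 2-fold higher in stomach, while 2 were higher in duodenum (median log2 -2.89).

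The next lists, of cells and programmes that both organs share, had median log2 differences between -0.80 and 0.38, beside -0.16 over all members. Of all members 16.4% were 2-fold higher in stomach and 14.8% in duodenum, and these small lists were not tested against those shares. Of 11 stem cell and Wnt genes kept, 4 were higher in duodenum and none in stomach (median log2 -0.48). Lgr5, the stem cell receptor, was at 1.00 and 1.60 RPKM and Smoc2 at 14.4 and 13.3 RPKM, whereas Olfm4, a crypt base gene of intestine, was at 1.95 and 149 RPKM, 76.5-fold (95% interval 65.0 to 90.5) higher. All 8 cell cycle genes were lower in stomach, with log2 differences from -1.15 to -0.61 (median -0.80). Of these 2 passed 2-fold, and neither did after rescaling to recovered reads. The median was then -0.58, beside 0.05 over all members. Mki67 was at 7.60 and 16.3 RPKM. Of 8 tuft cell genes 2 were higher in stomach and none in duodenum (median log2 0.38), with Dclk1 at 2.72 and 1.38 RPKM and Trpm5 at 4.13 and 3.66 RPKM. The 2 were Avil, villin's relative advillin, at 53.9 and 8.90 RPKM, and Alox5, a lipoxygenase named after its values were seen, at 5.14 and 2.02 RPKM. Of 7 general epithelial genes 2 were higher in stomach and 2 in duodenum. Their median log2 of -0.16 turned positive under 3 of the 4 rescalings. Epcam was 6.29-fold higher in duodenum and Krt18 2.83-fold higher in stomach. Of 7 housekeeping genes 1 passed 2-fold, Gapdh, at 544 and 1325 RPKM (median log2 -0.35).

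Connective tissue and myeloid cell genes mostly lay on the stomach side, muscle genes in part. Of 11 smooth muscle genes 4 were higher in VSG stomach and 1 in VSG duodenum (median log2 0.58), with Acta2 at 443 and 133 RPKM and Myh11 at 64.7 and 53.3 RPKM. Of 12 connective tissue genes 11 were higher in stomach (median log2 3.88). Col1a1, the main collagen of scar and stroma, was at 339 and 14.1 RPKM and at 39.9 RPKM in sham stomach. Timp1, an inhibitor of matrix proteases, was at 55.8 and 0.583 RPKM and at 1.36 RPKM in sham stomach. VSG stomach thus stood above sham stomach as well as above duodenum for both. All 12 macrophage genes were higher in VSG stomach (median log2 2.20), with Lyz2 at 1737 and 203 RPKM, and all 11 neutrophil genes (median log2 4.56), with S100a8 at 504 and 0.173 RPKM. With sham stomach in the place of VSG stomach, the macrophage count was 0 towards stomach and 6 towards duodenum, and the neutrophil count was 2 towards stomach.

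Lymphocyte genes pointed the other way in part. Of 8 T cell genes kept, 4 were higher in duodenum and 1 in stomach. Gzma, a granzyme of the killer cells that sit in the villus epithelium, was at 0.818 and 24.5 RPKM, 30.0-fold (95% interval 21.7 to 42.5) higher, while Cd3e, present in all T cells, was level at 2.84 and 2.56 RPKM. Jchain, which joins the antibodies secreted into the gut, was at 87.1 and 325 RPKM, 3.73-fold (95% interval 3.64 to 3.81) higher in duodenum. Cd79a, of all B cells, was at 12.9 and 6.13 RPKM. Of the 4 B and plasma cell genes kept, 2 were higher in stomach and 1 in duodenum, and of 7 MHC class II genes, which present antigen, 2 were higher in stomach, or 5 after rescaling to recovered reads. Of 19 acinar pancreas genes 6 were 2-fold higher in duodenum, or 1 after that rescaling, with Ctrb1, chymotrypsinogen, at 466 and 764 RPKM. Cpa1, carboxypeptidase, was at 70.4 and 155 RPKM. Sham stomach held 0.633 RPKM of Ctrb1 and sham jejunum 0.506 RPKM. Nerve and glia genes were low on both sides, with 6 of 12 kept and 2 higher in duodenum, and of 3 islet genes none passed 2-fold. All 3 red blood cell genes kept were higher in stomach, as were all 4 fat cell genes kept of 7 in the table. Plin1, Retn and Lep of that list fell under the 1 RPKM limit. The 4 had medians of 45.2 RPKM in VSG stomach and 0.613 RPKM in VSG duodenum, so some passed the limit through the stomach side.

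The border was then looked at in the separate pair, sham stomach against sham jejunum. There 12715 genes reached a mean of 1 RPKM, of which 2269 (17.8%) were 2-fold higher in sham stomach and 1783 (14.0%) in sham jejunum. Of the 1994 genes higher in VSG duodenum, 1277 (64.0%) were higher in sham jejunum as well, which is 71.6% of the genes higher there. Of the 2209 genes higher in VSG stomach, 1112 (50.3%) were higher in sham stomach, or 49.0% of the genes higher there. The side was opposite for 54 stomach genes and 20 duodenum genes. Among genes at least 16-fold apart, 177 of 178 duodenum genes (99.4%) passed 2-fold the same way in the sham pair, and 165 of 331 stomach genes (49.8%). Of those 331, 132 were under 1 RPKM in sham stomach. Sham and VSG differ in operation, and jejunum and duodenum in segment, so these cannot be told apart where the pairs differ.

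**Figure D5:**
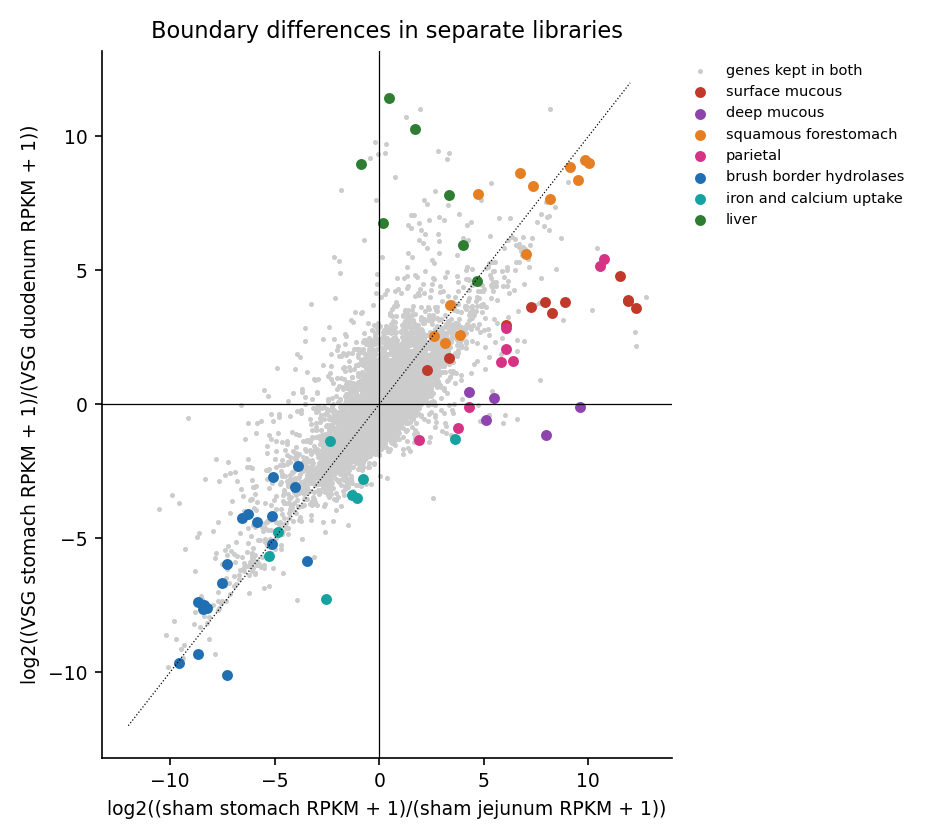
For genes kept in both pairs (12447), the x axis gives the log2 difference of sham stomach against sham jejunum and the y axis that of VSG stomach against VSG duodenum, 1 library each, with the dotted line at equal differences. Brush border genes lie near the line, liver genes on or above it, and surface mucous, deep mucous and parietal genes below it, with deep mucous genes near 0 on the y axis.

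Gene groups differed between the pairs as follows. The brush border list had a median log2 of -5.91 in the VSG pair and -6.91 in the sham pair, with all 18 genes on the intestinal side in both. Squamous genes had 7.85 and 7.01, again with all 13 on the stomach side. Surface mucous genes had 3.65 in the VSG pair and 8.26 in the sham pair, and deep mucous genes -0.09 and 5.51, with 5 of 5 higher in sham stomach. Parietal genes had 1.61 over 9 kept genes in the VSG pair and 5.82 over 11 in the sham pair, so these medians cover different genes. Chief cell genes had 3.49 and 10.42, over 5 kept genes in each pair. The liver list had 8.15 in the VSG pair, while only 7 of its 16 genes reached the 1 RPKM limit in the sham pair. Iron and calcium genes had -3.44 and -1.81, with 1 gene of 8, Cybrd1, on the stomach side of the sham pair at 20.3 RPKM in sham stomach and 0.728 RPKM in sham jejunum. Medians of the brush border and squamous lists thus lay far from 0 in both pairs, and those of mucous, parietal and chief cells were smaller in the VSG pair.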

How the data were processed

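Per the labels' protocols, TRIzol was used for extraction and TruSeq for library preparation. GSNAP, Cufflinks and mm10 are named in the submitters' processing notes without version or role. The deposited RPKM table, scaled by the authors, held 23079 genes by Entrez identifier in 10 libraries. Symbols and GRCm38 coordinates were taken from RefSeq (GRCm38.p6) and found for 23008 identifiers.

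In rows 27 to 18213 the 8 intestinal columns stood 1 row below their genes and were moved back. RPKM is whole reads divided by length and depth, so a gene's values must return whole reads: of 1324 genes sampled in that block 51 did so as deposited and 1323 after the move, within 0.001 reads, and 18565 of 18580 did so over all rows. The other 15 rows were left out. The recovered reads gave the exact 95% intervals and the floor of 3 reads used where a library had none. The steps were checked on simulated data.

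Members, the 41 gene lists and alternatives were chosen with earlier results of these data known. Named genes are the 10 largest and 10 smallest log2 differences, the first 4 genes of each list with its largest absolute difference, and related genes set side by side (trefoil, mucin, gastrokine, claudin, hedgehog, hormone and homeobox genes); any other is said to be chosen after its values were seen. Python 3.11.15, pandas 2.3.3, numpy 2.4.6, scipy 1.17.1 and matplotlib 3.10.9 were used.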

Additional observations from a re-analysis of the deposited data

How the results depend on the processing

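With 1 library a side, neither animals nor dissections can be told apart from the tissue, and intervals cover counting error only. No paired analysis was possible because each tissue and operation has 1 library. The main counts were 2209 genes higher in VSG stomach, 1994 higher in VSG duodenum and 2389 of these on the same side in the sham pair. A pseudocount of 5 gave 1276, 1299 and 1450, and a limit of 4-fold gave 1054, 661 and 946. A mean of at least 10 RPKM gave 920 for stomach, 1377 for duodenum and 1279 for the same side, with fewer genes tested (6158), so that duodenum then counted more genes; the cause was not tested. The rows as deposited gave 4846, 4774 and 7738, since intestinal values then stand beside the wrong genes. Other settings kept each count within 1.5 times: 2323 and 2032 without a filter, 2622 and 2354 with a pseudocount of 0.1. Rescaling gave 2434 and 1682 (1 total of RPKM, a shift of all genes by 0.13 on the log2 scale), 2480 and 1611 (without the 10 highest genes, 0.17), 2507 and 1579 (without the liver and acinar pancreas lists, 0.19) and 2665 and 1499 (recovered reads, 0.24, chosen after seeing the data). With sham stomach in place of VSG stomach the counts were 1473 and 2184, and with VSG jejunum in place of VSG duodenum 2943 and 1435. Of 82 counts over the lists (41 lists, both directions), 34 moved by more than 1.5 times with sham stomach in place, 22 with VSG jejunum, 45 with the rows as deposited, 24 at 4-fold, 17 at a mean of 10 RPKM, 14 with a pseudocount of 5, at most 8 under any rescaling and at most 2 under the others.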

Other observations

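A rule chosen after seeing the values took genes of VSG duodenum at least 8-fold above VSG stomach and above both jejunum libraries. It gave 6: Akp3, S100g, 2310057J18Rik, Slc40a1, Slc37a2 and Glp1r. All of them pass 8-fold with 1 added to each RPKM, unlike the plain ratios given above. Pdx1, which passes 8-fold over VSG stomach only as a plain ratio, is not among them. The RIKEN gene 2310057J18Rik was at 190.0 RPKM in VSG duodenum, 0.221 RPKM in VSG stomach and 0.0364 and 0.117 RPKM in sham and VSG jejunum. In every other library used here it was at most 0.221 RPKM. Glp1r, the receptor of the incretin GLP-1, was at 25.0 RPKM in VSG duodenum and 1.31 RPKM in VSG stomach. Sham stomach held more, 6.21 RPKM, and jejunum 0.219 and 0.306 RPKM. Slc37a2, a sugar-phosphate exchanger, was at 38.8 RPKM in VSG duodenum and 3.68 RPKM in VSG stomach, but colon held as much (45.0 and 41.6 RPKM).

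A second rule, also chosen after seeing the values, took genes at 10 RPKM or more in both stomach libraries and in VSG duodenum that were under 1 RPKM in both jejunum libraries. It found 11: Muc6, Mucl3, Cybrd1, Psca, A4gnt, Anxa10, Aqp5, Nkx6-3, Sptssb, Wfdc2 and Muc5ac. Mucl3, a mucin-like gene, was at 776 RPKM in VSG stomach and 66.2 RPKM in VSG duodenum. Wfdc2, a secreted protease inhibitor, was at 103 and 15.4 RPKM and was high in colon at 166 and 139.9 RPKM. Sptssb, a subunit of the enzyme that starts sphingolipid synthesis, was likewise at 237 and 16.2 RPKM, with 27.3 and 40.8 RPKM in colon. A4gnt was at 17.8 and 16.9 RPKM in colon. Wfdc2, Sptssb and A4gnt were thus absent or low between duodenum and colon, where their levels were higher again.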
